A study of Mus musculus with 24 samples.

Results

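A set of 10 genes of AU-rich RNA binding, among 54429 gene symbols in the deposited tables, was followed across macrophages with and without MAPKAP kinase-2 (MK2). They were chosen by name: the tristetraprolin family (Zfp36, Zfp36l1 and Zfp36l2), the RNA binders Elavl1, Hnrnpa0, Hnrnpd, Khsrp, Tia1 and Tial1, and the poly(A)-binding protein gene Pabpc1. All 10 passed the filter on low counts. The cells were grown from bone marrow of C57BL/6N mice, either MK2 WT or MK2 KO, with M-CSF at 10 ng/ml, a growth factor for macrophages. All were replated on day 7, and then were kept unstimulated (M0) or exposed for 24 h to 10 ng/ml IL-4 (M2), with 6 RNA-seq libraries in each of the 4 groups WT M0, WT M2, KO M0 and KO M2. The labels do not say which part of the MK2 gene was removed or whether libraries of 1 group came from different mice. The p-values therefore reflect library-to-library spread only, part of which may be technical.

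AU-rich elements are stretches of the 3′ untranslated region (3′UTR) of short-lived messenger RNAs, among them those of many cytokines. Tristetraprolin and its paralogs bind them through paired zinc fingers and recruit the enzymes that shorten the poly(A) tail, after which the message is degraded. HuR, the product of Elavl1, binds similar sites and is known for holding messages stable. MK2 is a kinase downstream of p38 that phosphorylates tristetraprolin and several hnRNP proteins, and in macrophages the phosphorylated form of tristetraprolin is known to be a weaker destabiliser. These are events on proteins, and the data below measure only RNA levels.

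The nonamer TTATTTATT, a preferred site of the tristetraprolin family, was found in the 3′UTRs of all 3 family members and of Elavl1, and the heptamer TATTTAT in those 4 and in Tia1 and Tial1. Sequences are shown for the 4 nonamer-bearing members, since they carry the kind of site that the family binds, and for Tnf, a classical target. They come from the GENCODE M21 transcript with the best principal annotation of each gene (mouse build mm10), read on the transcript strand from 5′ to 3′. Capitals mark bases in a heptamer or nonamer match.

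Zfp36, chr7:28376958-28376987, minus strand: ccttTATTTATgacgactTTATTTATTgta

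Zfp36l1, chr12:80108167-80108196, minus strand: aaactgttggaTTATTTATTttagaaattc

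Zfp36l2, chr17:84184914-84184943, minus strand: aactatttaacTTATTTATTatcttgtgaa

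Elavl1, chr8:4285777-4285806, minus strand: TTATTTATTTATTTATTTATTtTTATTTAT

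Tnf, chr17:35199678-35199707, minus strand: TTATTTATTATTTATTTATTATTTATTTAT

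All 5 windows lie in annotated 3′UTRs. The genes of the family span chr7:28376784-28380253 (Zfp36), chr12:80107754-80113013 (Zfp36l1) and chr17:84183931-84187947 (Zfp36l2), and Elavl1 spans chr8:4285382-4325413, all on the minus strand. The 3′UTR of Zfp36 was 774 bases long and held 1 nonamer and 3 heptamers, those of Zfp36l1 (1835 bases) and Zfp36l2 (1822 bases) also 1 nonamer and 3 heptamers each, and that of Elavl1 (4218 bases) 8 nonamers, several of them overlapping. Each nonamer contains a heptamer, so 1 of the 3 heptamers of each family member lies inside its nonamer. Among 20771 protein-coding genes with a 3′UTR, 7.11% held a nonamer and 26.1% a heptamer. Among 3′UTRs of like length, a nonamer was present in 4.29% for Zfp36, 9.97% for Zfp36l1, 9.86% for Zfp36l2 and 18.5% for Elavl1. For a heptamer the shares were 20.1%, 39.2%, 38.8% and 62.2% in the same order, and 54.65% for Tia1 and 51.4% for Tial1. Hnrnpa0, Hnrnpd, Khsrp and Pabpc1 held neither motif, and Khsrp held 1 copy of the core ATTTA in 1642 bases. A match is a run of letters, and whether any protein bound it was not measured.

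Total counts ranged from 7893809 to 13492507 per library. Mapkapk2, the gene of MK2, was at 100.3 to 139 CPM (counts scaled to a common library size) in all wild-type libraries and at 47.8 to 63.4 CPM in all knockout libraries, so the genotypes did not overlap and reads of the gene remained in knockout. All 10 macrophage markers were expressed, with a summed level of 13232 to 20370 CPM. Between genotypes 3 macrophage markers passed the threshold in both states: Mertk (-0.55 without and -0.49 with IL-4, log2 knockout over wild type) and Lyz2 (-0.39 and -0.33) were lower and Itgam (0.26 and 0.19) was higher in knockout. The platelet marker Ppbp was also lower in both (-1.28 and -1.29). In 1 state each, Ebf1 (-3.29) was lower and Ccr7 (1.59) higher without IL-4, and Itga2b (-1.08) was lower with IL-4. Markers of stromal cells differed most widely, with 13 of 13 tested genes lower in KO M0 and 12 of 13 in KO M2. Their summed level was 197 to 351 CPM in WT M0, 339 to 631 in WT M2, 22.9 to 48.4 in KO M0 and 89.8 to 253 in KO M2. The collagen-binding proteoglycan Lum was at 0 in every KO M0 library, but it was at most 0.406 CPM in any library. Fn1, the tested marker not called in KO M2, ranged from 13.0 to 515 CPM, and no other stromal marker went above 47.8. It was the only one called higher with IL-4 (1.51 in wild type and 2.89 in knockout), so the higher sums in M2 rest largely on Fn1. The labels give 3 libraries numbers apart from the rest: WT M0 replicate 3, WT M2 replicate 2 and KO M2 replicate 2. The library-set term used below has 3 levels: these libraries, the rest of replicates 1 to 3, and replicates 4 to 6. It therefore overlaps with the fits of replicates 1 to 3 or 4 to 6, and the labels do not name these sets.

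Pabpc1, which coats poly(A) tails, was by far the most abundant member. Levels of different genes are compared in GETMM, the authors' signal scaled for gene length and library. Its mean over the 24 libraries was 1003 GETMM, above 99.2% of tested genes. The order below it was Hnrnpd (170 GETMM), Zfp36l2 (122), Tial1 (73.3), Zfp36 (71.9), Hnrnpa0 (48.8), Elavl1 (47.2), Zfp36l1 (44.0), Khsrp (43.2) and Tia1 (19.5). Tial1 and Zfp36 overlapped in WT M0, WT M2 and KO M2, and their order turned with the group: Tial1 was above Zfp36 in 6 of 6 KO M0 libraries and in 0 of 6 KO M2 libraries. Hnrnpa0 and Elavl1 overlapped in all 4 groups, as did Zfp36l1 and Khsrp, and Elavl1 and Zfp36l1 overlapped in every group but KO M2, so the order of these 4 is not set beyond the spread. Hnrnpd was above Zfp36l2 in every library, although their ranges touched in WT M0. Within the family, Zfp36l2 was the highest paralog in all 24 libraries.

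**Figure D1:**
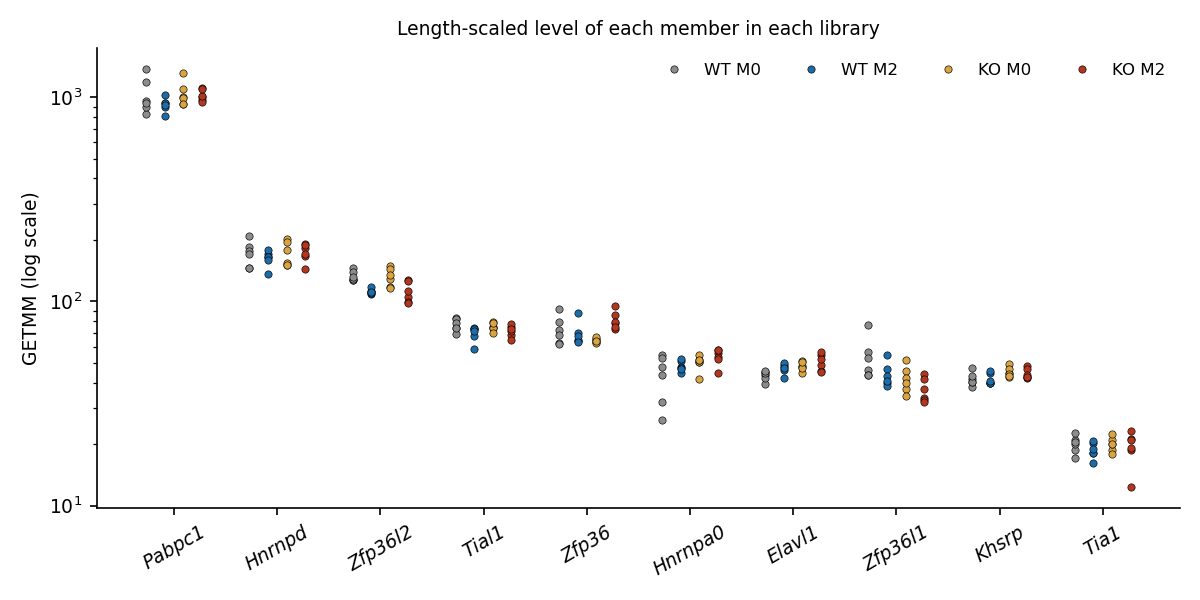
Length-scaled level (GETMM, log axis) of the 10 members, ordered by their mean, with 1 point per library and a colour per group. Pabpc1 lies at 808 to 1379, Tia1 at 12.3 to 23.2, and neighbours from Hnrnpa0 to Khsrp overlap.

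Few members passed the threshold for a change in RNA level in any comparison, and those that did were in the tristetraprolin family. With IL-4, 1 of 10 members passed the threshold in wild type (Zfp36l2, lower) and 2 of 10 in knockout (Zfp36 higher, Zfp36l2 lower). Of 12797 tested genes, 16.4% passed in wild type (8.49% higher, 7.95% lower) and 23.6% in knockout (12.2% higher, 11.4% lower), so the members were called about as often as other genes. Between genotypes 0 of 10 members passed, against 4.52% of all genes without IL-4 (1.10% higher, 3.42% lower) and 4.59% with IL-4 (1.51% higher, 3.09% lower). At an unadjusted p under 0.05 the genotype comparisons gave 3 members without IL-4 (Zfp36, Zfp36l1 and Elavl1, against 15.1% of all genes) and 1 with IL-4 (Zfp36, against 13.2%). DESeq2 and limma also gave 0 members in both. Median log2 fold changes of the members with IL-4 were -0.09 in wild type and -0.01 in knockout, and between genotypes -0.02 without IL-4 and 0.10 with it, and those of all tested genes -0.02, 0.00, -0.01 and 0.01.

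**Figure D2:**
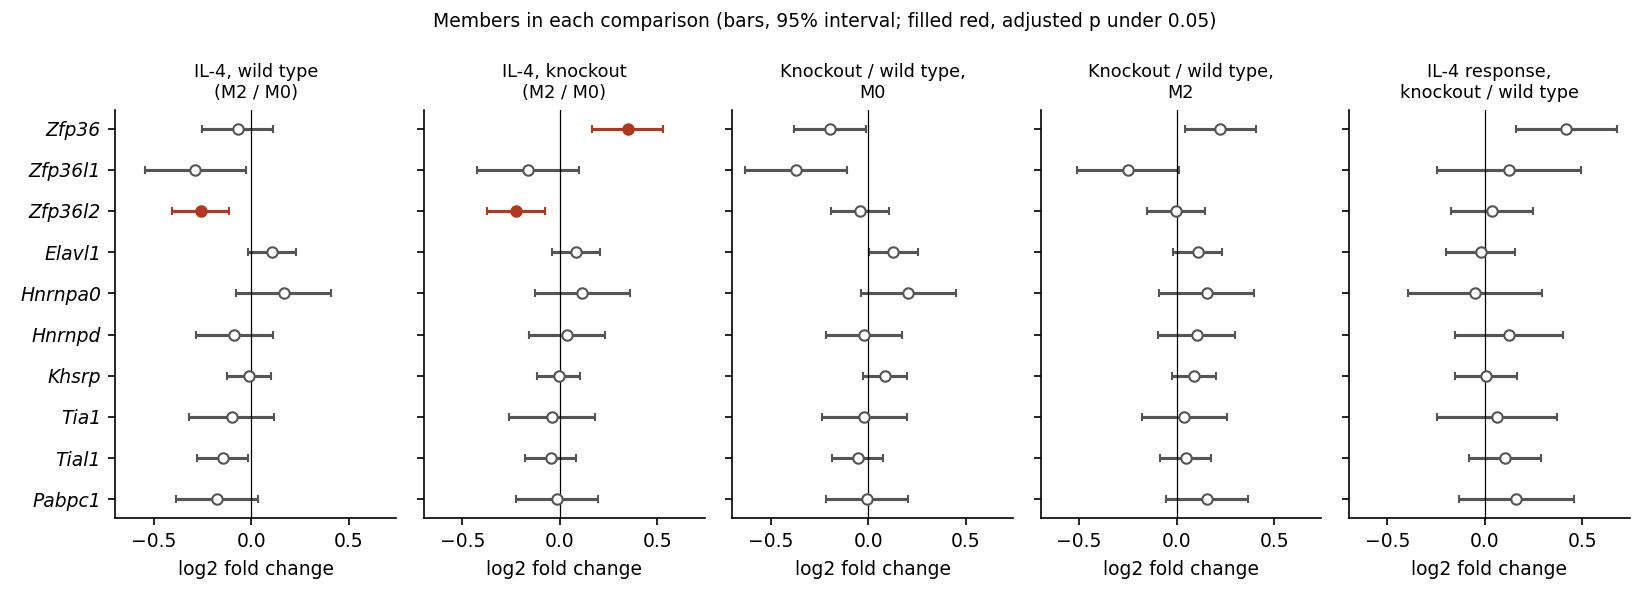
Log2 fold change of each member in the 5 comparisons, with bars for the 95% interval and filled red points for an adjusted p under 0.05. Zfp36 (0.35) is filled in the IL-4 comparison in knockout, and Zfp36l2 is filled in both IL-4 comparisons (-0.26 in wild type and -0.22 in knockout).

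Zfp36, which encodes tristetraprolin, rose with IL-4 in knockout macrophages. Its level, in CPM on TMM-scaled library sizes, was 87.1 at the lowest, 91.0 at the median and 92.1 at the highest in KO M0, and 102, 112 and 134 in KO M2. The groups did not overlap, and KO M0 was the tightest of the 4 groups, at 90.2 ± 2.10 CPM (SD, n = 6) against 115 ± 11.4 in KO M2. The rise was 1.27-fold (95% interval 1.12 to 1.45; log2 fold change 0.35, SE 0.09, adjusted p = 0.0046). Of all genes, 8.17% had M2 wholly above M0 in knockout. Within replicates 1 to 3 the difference was 0.42 (adjusted p = 0.0555), and within replicates 4 to 6 it was 0.26 (adjusted p = 0.00221).

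In wild type no change of Zfp36 was detected. It was at 88.0, 101 and 131 CPM (lowest, median, highest) in WT M0 and at 89.1, 93.5 and 124 CPM in WT M2. The groups overlapped over nearly their whole range, and the high values were 1 library each, WT M0 replicate 1 and WT M2 replicate 2. The log2 fold change was -0.07 (SE 0.09, 95% interval -0.25 to 0.11, adjusted p = 0.65), which is 0.84-fold to 1.08-fold. The difference between the IL-4 responses of the genotypes, tested as an interaction, was 0.42 on the log2 scale (SE 0.13). Its unadjusted p was 0.0027 and its adjusted p = 1.00, so it did not pass. The edgeR test called 0 genes for that interaction, 390 genes (3.05%) had an unadjusted p under 0.05, and DESeq2 called 1 gene and limma 3, none of them members.

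Between genotypes Zfp36 did not pass the threshold in either state. Without IL-4 it was lower in knockout, at 90.2 ± 2.10 CPM against 103 ± 16.1 (log2 fold change -0.19, SE 0.09, adjusted p = 0.29). That difference was -0.34 in replicates 1 to 3 and 0.01 in replicates 4 to 6, and -0.11 without WT M0 replicate 1. With IL-4 it was higher in knockout, at 115 ± 11.4 CPM against 98.2 ± 13.0 (log2 fold change 0.22, SE 0.09, adjusted p = 0.21). The latter was called when WT M2 replicate 2, one of the libraries numbered apart, was left out (0.30, adjusted p = 0.0262), with a library-set term (0.23, adjusted p = 0.0456) and within replicates 4 to 6 (0.26, adjusted p = 0.00592).

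**Figure D3:**
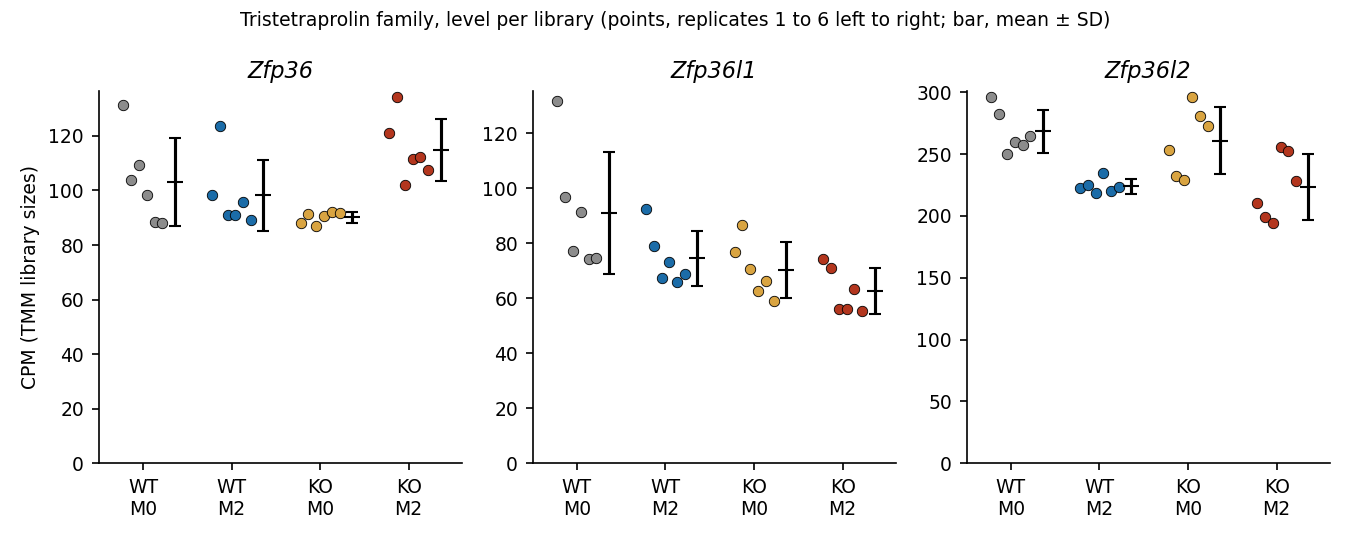
CPM of Zfp36, Zfp36l1 and Zfp36l2 in each of the 24 libraries, with points for replicates 1 to 6 from left to right in each group and bars for mean ± SD. Zfp36 is at 87.1 to 92.1 in KO M0 and 102 to 134 in KO M2, and Zfp36l2 is lower in M2 than in M0 in both genotypes.

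Zfp36l2, a paralog known for its part in lymphoid and early blood development, fell with IL-4 in both genotypes. In wild type it was at 250.0, 262 and 296 CPM (lowest, median, highest) in WT M0 and at 218, 223 and 235 CPM in WT M2. The groups did not overlap, which held for 3.41% of all genes in this direction, and WT M2 was narrow (224 ± 5.88 CPM, n = 6). The fall was to 0.83-fold (95% interval 0.75 to 0.93; log2 fold change -0.26, SE 0.07, adjusted p = 0.0129). Within replicates 1 to 3 it was -0.30 (adjusted p = 0.0588) and within replicates 4 to 6 it was -0.20 (adjusted p = 0.013).

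In knockout Zfp36l2 was at 229, 263 and 296 CPM in KO M0 and at 194, 219 and 256 CPM in KO M2. These groups overlapped, with 4 of 6 KO M2 libraries below the lowest KO M0 library. The fall was to 0.86-fold (95% interval 0.77 to 0.95; log2 fold change -0.22, SE 0.07, adjusted p = 0.0233). Both knockout groups split by replicate number. Replicates 1 to 3 were at 229 to 254 CPM in KO M0 and replicates 4 to 6 at 273 to 296, and in KO M2 the corresponding ranges were 194 to 210 and 228 to 256. Within replicates 1 to 3 the difference was -0.25 (adjusted p = 0.0855) and within replicates 4 to 6 it was -0.22 (adjusted p = 0.00456). The call was lost without KO M0 replicate 4 (adjusted p = 0.0744) or replicate 5 (0.0609), or without KO M2 replicate 1 (0.0559), 2 (0.0611) or 3 (0.066). Between genotypes Zfp36l2 did not pass, with log2 fold changes of -0.04 (95% interval -0.19 to 0.11) without IL-4 and 0.00 (-0.15 to 0.14) with IL-4. The sets of replicates went opposite ways here, with -0.19 in replicates 1 to 3 and 0.13 in replicates 4 to 6 without IL-4, and -0.14 and 0.12 with IL-4.

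Markers of several cell types also passed the threshold with IL-4. Of 13 stromal markers tested, Fn1 rose in both genotypes and Bgn fell in wild type, of 4 dendritic markers Itgax rose in both, and of 10 macrophage markers Itgam and Mrc1 rose and Cd14 and Fcgr1 fell in both. Of 2 endothelial markers tested, Pecam1 rose in both (0.67 and 0.79) and Kdr fell in knockout (-0.89), and of 2 B-cell markers Ebf1 rose in knockout (1.90). The summed dendritic list went from 124 to 155 CPM in WT M0 to 312 to 538 in WT M2 and from 84.6 to 160.0 in KO M0 to 300.2 to 558 in KO M2. Itgax was the only dendritic marker called with IL-4 (1.70 in wild type and 2.32 in knockout). No dendritic marker was at 0 throughout a group. Their part in the results for Zfp36 and Zfp36l2 was not tested, and in these bulk samples fewer cells of a type cannot be told apart from less RNA per cell.

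Zfp36l1, which is widely expressed and acts on the same sites, did not pass the threshold in any comparison of the fit over the 4 groups without covariates. It was at 74.4, 84.3 and 132 CPM (lowest, median, highest) in WT M0, at 65.9, 71.1 and 92.6 in WT M2, at 59.1, 68.5 and 86.6 in KO M0, and at 55.3, 59.8 and 74.4 in KO M2. All neighbouring groups overlapped, and the value of 132 was WT M0 replicate 1, with the next at 96.9. In knockout without IL-4 the log2 fold change was -0.37 (SE 0.13, unadjusted p = 0.00724, adjusted p = 0.113), and 4 of 6 KO M0 libraries lay below the lowest WT M0 library. With IL-4 it was -0.25 (adjusted p = 0.43). For IL-4 in wild type it was -0.29 (adjusted p = 0.129) and in knockout -0.16 (adjusted p = 0.42). Zfp36l1 was lower with IL-4 in 6 of 6 same-numbered pairs in each genotype. With replicate or culture number as a block, the wild-type fall was called (-0.27 in both, adjusted p = 0.0122 and 0.00313) and the knockout fall was not. The labels do not say what a culture number marks. Without WT M0 replicate 1 the knockout difference without IL-4 was -0.24 and the IL-4 difference in wild type -0.15.

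The knockout difference of Zfp36l1 without IL-4 was called with a library-set term (-0.39, adjusted p = 0.0182) and within replicates 4 to 6 (-0.34, adjusted p = 0.0159). It was also called with the replicate number as a block (-0.35, adjusted p = 0.00378). The stromal marker sum, at 197 to 351 CPM in WT M0 and 22.9 to 48.4 in KO M0, was lower in the same libraries, and its part in this difference was not tested. Of the 40-base stretches of the Zfp36l1 transcript, 54.1% also lie, on the other strand, in the predicted gene Gm26669, so reads without strand could be split between them. Gm26669 held 8.25% to 23.5% of the counts of both genes together. With its counts added to Zfp36l1, log2 fold changes for IL-4 were -0.26 (WT) and -0.16 (KO), and between genotypes -0.33 (M0) and -0.24 (M2), with adjusted p from 0.125 to 0.38.

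The balance within the family is given as the share of each paralog in the summed GETMM of the 3, with no test. Zfp36l2 held 51.7% ± 3.24 (SD, n = 6) in WT M0, 49.8% ± 2.73 in WT M2, 55.2% ± 3.56 in KO M0 and 48.5% ± 4.41 in KO M2. Zfp36 held 27.9% ± 1.93 in WT M0, 30.8% ± 2.51 in WT M2, 27.1% ± 0.934 in KO M0 and 35.4% ± 2.79 in KO M2. The share of Zfp36 was 25.8% to 28.3% in KO M0 and 32.7% to 40.2% in KO M2, without overlap, while in wild type the ranges of 26.1% to 31.3% and 28.7% to 35.6% overlapped. Zfp36l1 held 20.4% ± 2.37, 19.5% ± 1.88, 17.7% ± 2.95 and 16.1% ± 1.88 in the same order of groups. The family sum was 259 ± 29.3 GETMM in WT M0, 225 ± 13.9 in WT M2, 238 ± 11.1 in KO M0 and 229 ± 13.9 in KO M2, and the ranges of all 4 groups overlapped.

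**Figure D4:**
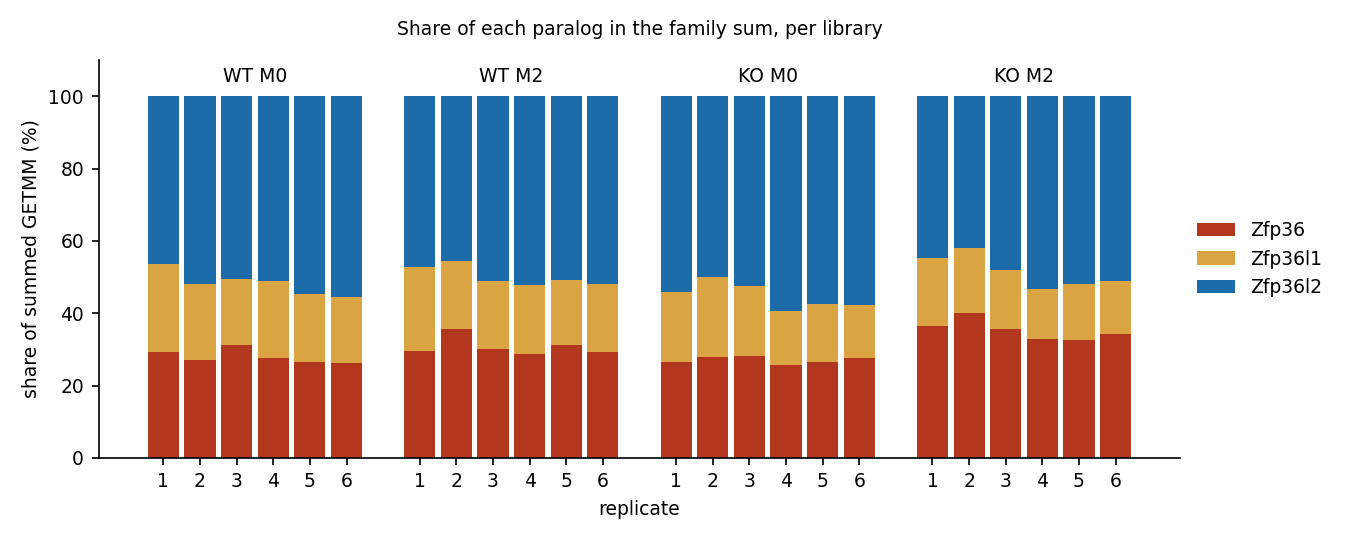
Share (%) of Zfp36, Zfp36l1 and Zfp36l2 in their summed GETMM, with 1 stacked bar per library and replicates 1 to 6 in each group. The Zfp36 share is 25.8% to 28.3% in KO M0 and 32.7% to 40.2% in KO M2.

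Elavl1 encodes HuR, which shields AU-rich messages. It was at 55.6, 60.9 and 63.8 CPM (lowest, median, highest) in WT M0, 58.6, 65.9 and 69.3 in WT M2, 61.6, 65.6 and 70.7 in KO M0, and 63.7, 69.9 and 78.8 in KO M2. WT M0 was the lowest group, and 5 of 6 libraries of both WT M2 and KO M0 lay above its highest library, yet no difference passed. The log2 fold changes were 0.11 for IL-4 in wild type (adjusted p = 0.25), 0.08 for IL-4 in knockout (0.36), 0.13 for knockout without IL-4 (unadjusted p = 0.0417, adjusted p = 0.30) and 0.11 for knockout with IL-4 (adjusted p = 0.50), each with SE 0.06. Of the 40-base stretches of the Elavl1 transcript, 2.89% also lie, on the other strand, in Ccl25. That gene held 26 to 68 counts, at most 11.7% of the Elavl1 count. The ratio of Zfp36 to Elavl1 in GETMM, the destabiliser over the stabiliser, was 1.69 ± 0.352 in WT M0, 1.49 ± 0.297 in WT M2, 1.34 ± 0.0674 in KO M0 and 1.62 ± 0.237 in KO M2, with overlapping ranges.

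Hnrnpd encodes AUF1, several isoforms of which bind AU-rich elements and promote decay. Over all libraries no change was detected, with log2 fold changes between -0.09 and 0.10 and adjusted p of at least 0.59. The 95% intervals were -0.28 to 0.11 for IL-4 in wild type and -0.09 to 0.30 for knockout with IL-4. Its medians were 101 CPM in WT M0, 96.6 in WT M2, 96.1 in KO M0 and 103 in KO M2. The sets of replicates disagreed, however. In replicates 4 to 6, KO M0 was at 88.0 to 89.2 CPM and WT M0 at 99.7 to 109, a log2 difference of -0.23 (adjusted p = 0.0265), while in replicates 1 to 3 it was 0.21 in the other direction, with KO M0 at 103 to 116 CPM and WT M0 at 83.4 to 123. IL-4 in knockout likewise gave 0.22 in replicates 4 to 6 (adjusted p = 0.0127) and -0.14 in replicates 1 to 3.

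Hnrnpa0, a target of MK2 in the stress response that binds AU-rich messages, was at 40.7, 69.8 and 81.4 CPM in WT M0, 67.3, 72.4 and 79.3 in WT M2, 62.1, 77.2 and 81.2 in KO M0, and 68.8, 82.7 and 88.7 in KO M2. WT M0 replicates 1 and 4, at 40.7 and 49.8 CPM, were the 2 lowest of the 24 libraries. No difference passed, with log2 fold changes of 0.12 to 0.21 (SE 0.12, adjusted p of at least 0.38). Without WT M0 replicate 1 the IL-4 difference in wild type went from 0.17 to 0.06 and the knockout difference without IL-4 from 0.21 to 0.10. Khsrp encodes KSRP, which brings decay enzymes to AU-rich messages. It was the steadiest member, at 87.3 to 109 CPM over all libraries, and its log2 fold changes were -0.01 for IL-4 in both genotypes and 0.09 for knockout in both states (SE 0.05, adjusted p of at least 0.49). The 95% intervals for IL-4 ran from -0.12 to 0.10 in wild type and from -0.12 to 0.11 in knockout.

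Tia1 and Tial1 encode TIA-1 and TIAR, which repress translation of AU-rich messages and gather in stress granules. Tial1 was the higher of the pair, with a GETMM ratio to Tia1 of 3.85 ± 0.173 in WT M0, 3.73 ± 0.277 in WT M2, 3.77 ± 0.298 in KO M0 and 3.85 ± 0.714 in KO M2. Tial1 was at 57.7, 65.4 and 71.4 CPM in WT M0 and at 49.5, 61.7 and 62.9 in WT M2 (log2 fold change -0.15, SE 0.06, adjusted p = 0.12). This was called without WT M0 replicate 3 (-0.18, adjusted p = 0.0438) and with a library-set term (-0.15, adjusted p = 0.0136). In knockout Tial1 gave -0.05 (adjusted p = 0.68). Tia1 ranged from 18.9 CPM in KO M2 replicate 2 to 35.6 in KO M2 replicate 5, so its extremes fell in 1 group, and its log2 fold changes lay between -0.10 and 0.04 (SE 0.11, adjusted p of at least 0.57).

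Pabpc1 was at 851, 964 and 1424 CPM in WT M0, 818, 943 and 1034 in WT M2, 936, 998 and 1318 in KO M0, and 966, 1026 and 1124 in KO M2. The 3 highest values were single libraries of the M0 groups, WT M0 replicates 1 and 4 (1424 and 1225) and KO M0 replicate 2 (1318). No difference passed, with -0.17 for IL-4 in wild type (SE 0.10, adjusted p = 0.27; -0.07 without WT M0 replicate 1) and 0.16 for knockout with IL-4 (SE 0.10, adjusted p = 0.62). Of its 40-base stretches, 26.7% also occur in other annotated genes, but the pseudogenes with the largest overlap, Gm16580 and Gm8276, held 0 to 7 and 0 to 15 counts.

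**Figure D5:**
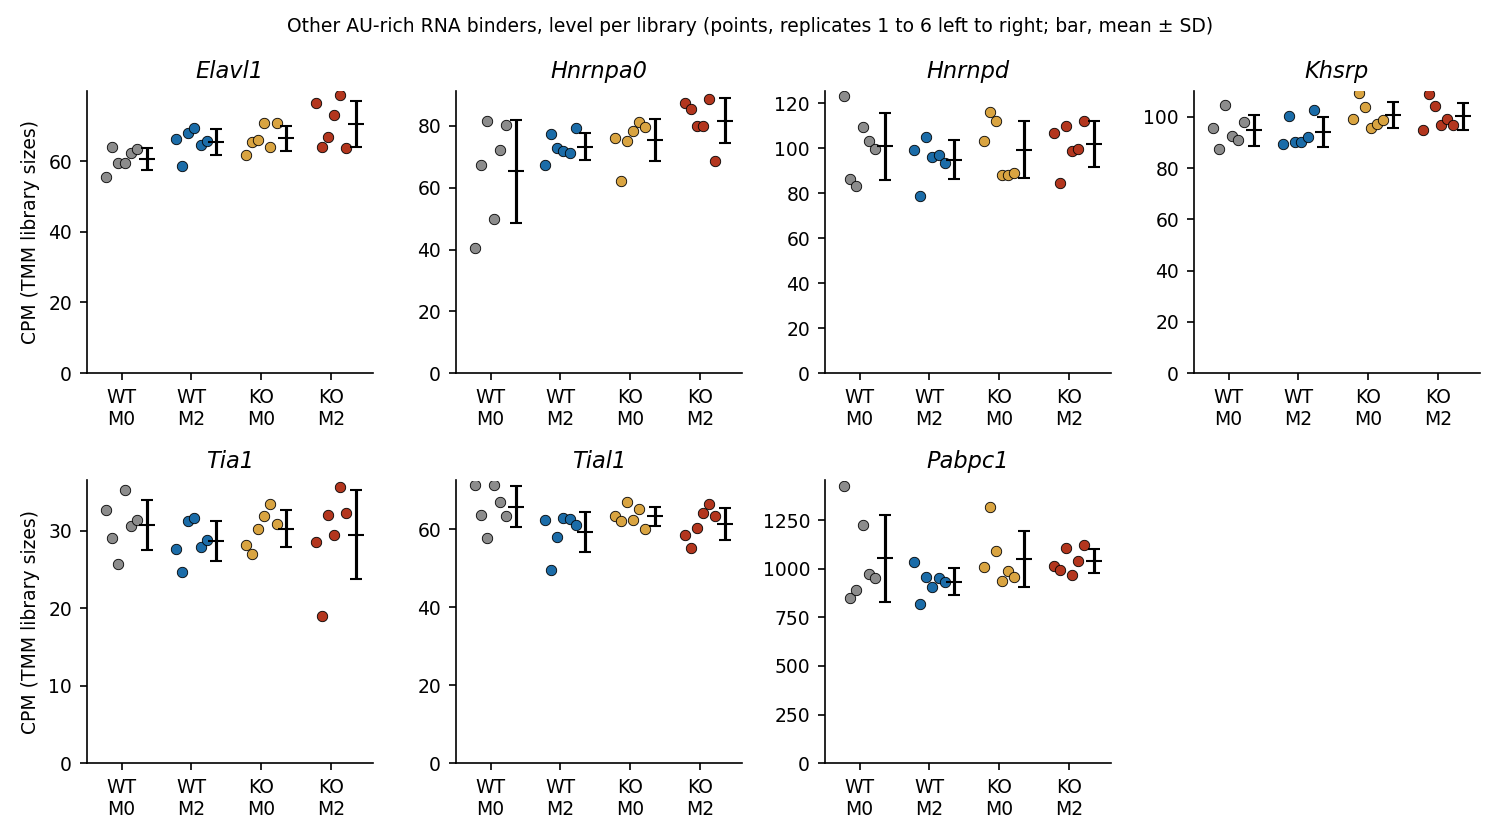
CPM of the 7 other members in each library, with points for replicates 1 to 6 from left to right and bars for mean ± SD. Khsrp stays at 87.3 to 109, and WT M0 replicate 1 is low for Hnrnpa0 (40.7) and high for Pabpc1 (1424).

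Some members moved together across libraries, described here by Pearson's r of log2 CPM over the 24 libraries, which share sequencing and scaling. Hnrnpd and Pabpc1 rose and fell together (r = 0.84, and 0.84 after the group means were removed), as did Tia1 and Tial1 (0.69 and 0.68). Hnrnpa0 ran against Pabpc1 (-0.67 and -0.86) and against Zfp36l1 (-0.73 and -0.60). Zfp36 and Zfp36l1 were at 0.24 over all libraries and at 0.64 within groups. Of 9574 genes compared (mean log2 CPM of 2 or more), those most like Zfp36 were Crat (0.86), Cdk16 (0.85) and Cyb5r3 (0.85). Those most like Zfp36l1 were Ddrgk1 (0.88), Anp32a (0.87) and Ifnar2 (0.86), all with WT M0 as their highest group. WT M0 replicate 1 was the highest of the 24 libraries for each of them and for Zfp36l1. By Spearman's rank correlation they were at 0.83, 0.76 and 0.72. Those most like Zfp36l2 were Mpeg1 (0.95), which encodes the pore-forming perforin-2 of macrophages, Cyp27a1 (0.90) and Cybb (0.90), the catalytic subunit of the phagocyte NADPH oxidase. Mpeg1 was at 5126 ± 260.4 CPM in WT M0 and 4363 ± 169 in WT M2, and at 5129 ± 476 in KO M0 and 4202 ± 378 in KO M2.

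Genes of the machinery with which these proteins work are given as counts, to be read against the 16.4% of all genes called with IL-4 in wild type and the 23.6% in knockout. Of 20 tested genes of decapping and 5′ decay, 0 passed in any comparison. Of 18 tested genes of deadenylation, which include the CCR4-NOT complex that tristetraprolin recruits, 1 passed: Btg1, an antiproliferative partner of the complex, fell with IL-4 by 0.32 on the log2 scale in wild type (SE 0.10, adjusted p = 0.0223) and by 0.30 in knockout (SE 0.10, adjusted p = 0.0219). Of 15 exosome and 3′ decay genes, Ttc37, a subunit of the SKI complex, rose with IL-4 in wild type and in knockout (0.20 in both), and Exosc7 fell in knockout (-0.27). Of 14 genes of 14-3-3 proteins and the phosphatase PP2A, which bind or dephosphorylate tristetraprolin, 2 rose with IL-4 in wild type (Ywhaz 0.17 and Ppp2r1b 0.23) and 3 in knockout (Ywhaz 0.21, Ppp2r1b 0.21 and Ppp2r1a 0.18). None of these lists had a gene past the threshold between genotypes by edgeR. Of all genes, only 4.52% passed between genotypes without IL-4 and 4.59% with IL-4.

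Of 26 other AU-rich RNA binders tested, 2 were higher and 3 lower with IL-4 in wild type. In knockout 3 were higher and 1 lower. The shares of all genes called with IL-4 were 16.4% in wild type and 23.6% in knockout, as above. Between genotypes 0 of 26 passed, against 4.52% of all genes without IL-4 and 4.59% with IL-4. Zc3h12a, the endonuclease regnase-1 that cleaves cytokine messages, rose in wild type (0.44, SE 0.13, adjusted p = 0.0185) and in knockout (0.45, SE 0.13, adjusted p = 0.0119). Its relative Zc3h12d fell in wild type (-0.29, SE 0.07) and in knockout (-0.38, SE 0.07). Pcbp1 rose in both (0.19 and 0.23), Pcbp2 in knockout (0.15), and Rbm38 (-0.66) and Hnrnpdl (-0.31), the last named after its value was seen, fell in wild type. Of 15 tested genes that bind poly(A) or start cap-dependent translation, 2 rose and 2 fell with IL-4 in wild type, and 4 rose and 1 fell in knockout. The helicase Eif4a1 rose (0.28 and 0.35) and its cofactor Eif4b fell (-0.23 and -0.17). Stress granule proteins gave 1 lower of 13 in wild type (Atxn2l, -0.24) and 0 elsewhere, and 5′ TOP messages, ribosomal and elongation genes, gave 1 higher and 1 lower of 23 with IL-4 in each genotype.

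Known AU-rich targets of tristetraprolin changed with IL-4 in both directions. Of 29 tested, 6 rose and 7 fell in wild type, and 8 rose and 9 fell in knockout, where the background was 16.4% and 23.6% of all genes in either direction. The median log2 fold change of the list was -0.05 in wild type and 0.05 in knockout. Clic4, a chloride channel protein, rose (0.61, SE 0.06, and 0.79, SE 0.06), as did Cd274, which encodes PD-L1 (1.14 and 1.42). The phosphatase gene Dusp1 fell (-1.09, SE 0.09, and -0.89, SE 0.09) and so did Fos (-0.86 and -0.92). Immediate early genes, of which Zfp36 is itself commonly counted one, gave 7 higher and 4 lower of 24 in wild type and 8 higher and 5 lower in knockout, with Egr2 (1.41 and 1.68), Klf4 (1.65 and 1.72), Atf3 (0.62 and 0.67) and Fosl2 (0.64 and 1.03) among those that rose in both genotypes. The 2 lists share Fos, Dusp1 and Ier3.

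Between genotypes the target list also split. Without IL-4, 3 of 29 were higher in knockout (Tnf, Clic4 and Cxcl2) and 3 lower (Ptgs2, Il1a and Lif), against 4.52% of all genes. Tnf, the cytokine whose AU-rich sites are shown above, was at 8.63 ± 0.886 CPM (SD, n = 6) in WT M0 and at 13.6 ± 1.62 in KO M0, without overlap, as for 0.977% of all genes in this direction (log2 fold change 0.66, SE 0.11, adjusted p = 0.00015). With IL-4 it was at 5.18 to 8.55 CPM in WT M2 and 6.95 to 8.38 in KO M2. Ptgs2 (-2.21), Il1a (-1.26) and Lif (-2.69) were lower, and Lif and Ptgs2 were at low levels, 1.37 ± 0.364 and 1.46 ± 0.42 CPM in WT M0. Cxcl2, on the higher side, was also low, with an average log2 CPM of 0.17, against -0.11 for Lif and -0.02 for Ptgs2. With IL-4, 4 of 29 were higher in knockout (Clic4 0.41, Dusp1 0.44, Plk2 0.22 and Cxcl2 1.34). Another 3 were lower (Il1a -1.26, Lif -2.96 and Nfkbiz -1.14). Of the 24 tested immediate early genes, Fosl2 (0.44) and Dusp1 were higher with IL-4. Of all genes, 4.59% were called in this comparison (1.51% higher and 3.09% lower). Clic4 and Cxcl2 without IL-4, and Plk2, Cxcl2 and Nfkbiz with IL-4, are named after their values were seen. The stromal marker sums given above were lower in the same knockout libraries, and their part in the lower targets was not tested.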

How the data were processed

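The 24 libraries were made from total RNA with a Kapa Hyperprep kit and sequenced as single ends of 40 bp, per the labels' protocols. The authors deposited rounded expected counts for each gene, and GETMM values, a signal that adjusts those counts for gene length and library size. Tools named in the submitters' processing notes are CASAVA 2.8.0, RSEM 1.3.0 and Bowtie2 2.3.4.1, with edgeR and the build mm10. No source used here gives the strand setting. In the deposited signal each value equalled the count times 1 factor per gene and 1 per library (8407 genes checked). Columns were assigned to samples from their titles.

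Genes were filtered with filterByExpr (minimum count 10), which left 12797 genes with 99.8% of counts, and scaled by TMM. The robust quasi-likelihood test of edgeR 4.0.16 (R 4.3.3) was fitted over the 4 groups without covariates. P-values were adjusted over every tested gene by Benjamini-Hochberg, with 0.05 as the threshold. Marker sums use CPM of the total count. The test was tried on simulated data with known changes.

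The members, lists and tests were chosen with earlier results of these data known. Named genes are all members, Mapkapk2, up to 4 called genes with the smallest p per list and comparison, and the 3 genes most like each family member. Motifs were counted on the transcript strand in 1 transcript per gene of GENCODE M21. Alternatives were RLE size factors, 2 other count filters, DESeq2 1.42.0, limma 3.58.1 on log2(GETMM + 1), fits of 2 groups, of 21 libraries, of replicates 1 to 3 or 4 to 6, a term for the library-number set, replicate or culture number as a block, each library left out, and, chosen after the data were seen, the summed Zfp36l1 and Gm26669 counts. No 2 libraries of a group matched within sampling noise (lowest chi-square 2.66 per degree of freedom), so none was merged. Depth limits precision: the members' counts ran from 201 (Tia1) to 14119 (Pabpc1) per library.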

Additional observations from a re-analysis of the deposited data

Results flagged for a closer look

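In 4 of 40 sets of 6 libraries (10 members in 4 groups), 1 library lay far from the others by Dixon's test at the 95% level, which chance alone gives in about 1 of 20 sets. Zfp36 was at 124 CPM in WT M2 replicate 2, with the next at 98.4. Tial1 was at 49.5 CPM in the same library, with the next at 58.0. Zfp36l2 was at 235 CPM in WT M2 replicate 4, with the next at 225. Hnrnpa0 was at 62.1 CPM in KO M0 replicate 2, with the next at 75.3. WT M2 replicate 2 is one of the 3 libraries whose numbers stand apart.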

How the results depend on the processing

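Of 1295 values of single members under another setting, 1172 kept their direction and side of the threshold, 99 that passed in neither fit changed sign, 12 passed newly and 12 no longer passed, and no called value reversed. The rise of Zfp36 with IL-4 in knockout passed in 11 of 12 alternatives (0.26 to 0.42) and without each of 12 libraries, and the fall of Zfp36l2 in wild type in 10 of 12 (-0.30 to -0.20) and without each of 12. The fall of Zfp36l2 in knockout passed in 8 of 12 and without 7 of 12 libraries, and was lost with no count filter (adjusted p = 0.0734), in the fit of 2 groups (0.0557) and in the fit of 21 libraries (0.0537). For IL-4 in wild type 1 member passed, and 0 with no count filter, 2 with the library-set term and 0 in replicates 1 to 3. For IL-4 in knockout 2 passed, and 1 with no count filter, 1 in the fit of 2 groups, 1 in the fit of 21 libraries, 0 in replicates 1 to 3 and 3 in replicates 4 to 6 (Hnrnpd added). Between genotypes without IL-4 0 passed, and 1 with the set term and 2 in replicates 4 to 6 (Zfp36l1 and Hnrnpd). With IL-4 0 passed, and 1 with the set term and 1 in replicates 4 to 6. With single libraries left out, 1 to 2 members passed for IL-4 in wild type, 1 to 2 for IL-4 in knockout and 0 to 1 for knockout with IL-4.

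Over all genes, IL-4 in wild type gave 2103 calls (857 in replicates 1 to 3), IL-4 in knockout 3024 (1472 in replicates 1 to 3), knockout without IL-4 579 (1044 with the set term, 956 in replicates 4 to 6), knockout with IL-4 588 (919 with the set term, 305 in replicates 1 to 3, 1056 in replicates 4 to 6), and the difference between IL-4 responses 0 (21 in replicates 4 to 6, 1 by DESeq2, 3 by limma). The cause was not tested.

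The pairing of libraries by number was checked through the correlation of their deviations from the group means. It was 0.01 to 0.35 between M0 and M2 libraries of 1 culture number in wild type and -0.04 to 0.26 in knockout, over 0.1 in 4 of 6 pairs each, and 3 and 4 of 6 libraries correlated best with their own number. Between genotypes it was -0.30 to 0.17 in M0 and -0.07 to 0.48 in M2, so the numbers were not taken to pair the samples. Zfp36l1 was lower with IL-4 in 6 of 6 same-numbered pairs in each genotype. With the replicate number as a block, 2 members passed for IL-4 in wild type (Zfp36l2 and Zfp36l1 at -0.27, adjusted p = 0.0122) and 1 for knockout without IL-4 (Zfp36l1, -0.35, adjusted p = 0.00378). With the culture number as a block, 2 members passed for IL-4 in wild type (Zfp36l2 and Zfp36l1 at -0.27, adjusted p = 0.00313) and 2 genes for the difference between the IL-4 responses. On CPM in place of GETMM, the share of Zfp36 in the family was 22.3% in WT M0, 24.7% in WT M2, 21.4% in KO M0 and 28.7% in KO M2, and that of Zfp36l2 58.3%, 56.6%, 61.8% and 55.7%.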
